A study of Mus musculus with 18 samples.

Results

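Transcript levels of bone morphogenetic protein (BMP) pathway components and of Id genes were followed in mouse embryonic stem cells. The settings were withdrawal of leukaemia inhibitory factor (LIF), the same withdrawal under calcineurin inhibition, and cells with an inducible active form of calcineurin. The genes considered were Bmp4, Bmpr1a, Smad1, Smad5, Smad6, Id1, Id2 and Id3, and every probe that the platform annotation assigns to 1 of these symbols was taken. This gave 13 probes for 6 of the 8 genes, out of 17711 genes with a probe and 46632 probes in all. No probe is listed for Smad5 or Smad6, which are not analysed here. Of the 13 probes, 12 were detected (detection p under 0.05) on both arrays of at least 1 group and were tested. The remaining Smad1 probe (probe 4) was detected on 1 of 18 arrays and is not considered further.

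BMPs are secreted ligands that bind paired type I and type II serine-threonine kinase receptors. The activated type I receptor phosphorylates Smad1, Smad5 and Smad9, which enter the nucleus with Smad4, while Smad6 inhibits the pathway. Id genes are direct targets of this pathway, and the Id proteins they encode bind E proteins and keep basic helix-loop-helix (bHLH) factors off their E-box sites. In mouse embryonic stem cells kept with LIF, BMP4 acting through Id genes is known to restrain neural differentiation.

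The cells were CGR8 embryonic stem cells of strain 129P2/Ola. Total RNA was measured on Illumina Sentrix Mouse-6 v1.1 BeadChips, 18 arrays in 9 groups of 2. CGR8 cells were taken at days 0, 1 and 3 of LIF withdrawal, and at the same days of LIF withdrawal with cyclosporin A (CsA), which inhibits calcineurin. The labels do not give the length of the CsA exposure before day 0. The ideltaCnAES cells, a CGR8 derivative, had tetracycline (Tc) removed to induce deltaCnA, a constitutively active form of calcineurin A. They were taken at days 0, 1 and 4 of that removal. No arrays of these cells with Tc kept to day 1 or 4 are in the series. Effects of deltaCnA, of Tc removal and of days in culture therefore cannot be told apart. The labels give neither the driving promoter, the number of clones nor whether LIF was present in the deltaCnA series. They do not say that the 2 arrays of a group came from separate cultures, and the p-values then reflect the spread between these arrays alone, possibly a technical one.

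Mean probe intensity ran from 286.9 to 484 per array, and 40.43% to 44.07% of probes were detected. LIF withdrawal was visible in Socs3, a feedback inhibitor induced by LIF signalling, which fell 27.9-fold by day 1 (log2 change -4.80 ± 0.20, SE). In the deltaCnA groups the mean Socs3 level stayed between 11.16 and 11.52 on the log2 scale, against 11.39 at day 0 of LIF withdrawal. The summed intensity of 6 embryonic stem cell markers was 34692 to 39874 at day 0 and 14532 to 15205 at day 3 of LIF withdrawal, and 31624 to 34025 and 23040 to 27401 at these days with CsA. Over the same days without CsA the summed intensity of 4 neuroectoderm markers went from 57.7 to 82.2 up to 448 to 507, with Sox1 and Neurog2 undetected, and that of 8 primitive endoderm markers from 154 to 214 up to 502 to 512, with Gata6, Sox17, Foxa2, Afp and Ttr undetected. The summed intensity of 8 fibroblast markers went from 196 to 213 up to 435 to 514 without CsA, with Col1a1, Col1a2, Col3a1, Lum and Postn undetected in every group, and that of 6 blood and endothelium markers from 497 to 709 up to 889 to 962, with Cdh5, Tie1 and Gata1 undetected. At day 3 with CsA these 2 sums were 142 to 152 and 573 to 683. There the neuroectoderm sum was 101 to 160 and the primitive endoderm sum 295 to 340. The summed intensity of 6 trophectoderm markers at day 3 was 1463 to 1500 without CsA and 2810 to 3188 with it. That of 5 mesoderm markers was 114 to 118 without CsA and 159 to 167 with it. In the deltaCnA series the neuroectoderm sum was 227 to 284 at day 0 and 54.0 to 85.3 at day 4, with Sox1 and Neurog2 undetected. The part of these shifts in the results below was not tested. In bulk RNA, fewer cells that express a gene and less RNA per cell cannot be told apart.

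Promoters were looked up for Bmp4, Id1, Id2 and Id3, and those of Bmp4, Id2 and Id3 are shown, since none was listed for Id1. During LIF withdrawal Bmp4 and Id3 fell, and Id2 rose on 1 of its 2 probes. Each sequence holds the 250 bases before the annotated start, read 5′ to 3′ on the gene's strand (RefSeq, GRCm38.p6). Capitals mark the E-box letters CANNTG and the GC-rich Smad motif GGCGCC.
Bmp4, chr14:46390670-46390919, minus strand: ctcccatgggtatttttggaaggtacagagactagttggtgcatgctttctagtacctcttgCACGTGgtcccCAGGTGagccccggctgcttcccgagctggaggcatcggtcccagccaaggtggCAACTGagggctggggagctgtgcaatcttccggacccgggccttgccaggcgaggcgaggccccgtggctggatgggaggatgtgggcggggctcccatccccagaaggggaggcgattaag
Id2, chr12:25096093-25096342, minus strand: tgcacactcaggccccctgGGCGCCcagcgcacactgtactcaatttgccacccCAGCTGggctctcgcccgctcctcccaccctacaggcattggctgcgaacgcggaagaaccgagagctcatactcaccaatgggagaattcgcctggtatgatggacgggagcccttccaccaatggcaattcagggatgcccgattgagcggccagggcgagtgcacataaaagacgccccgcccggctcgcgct
Id3, chr4:136143572-136143821, plus strand: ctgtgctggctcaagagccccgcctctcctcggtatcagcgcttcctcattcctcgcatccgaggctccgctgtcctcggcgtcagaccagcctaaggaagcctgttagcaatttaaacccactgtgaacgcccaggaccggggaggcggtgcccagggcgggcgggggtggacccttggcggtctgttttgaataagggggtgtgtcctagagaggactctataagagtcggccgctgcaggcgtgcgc

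The Bmp4 window held 3 E-box matches, beginning 188, 177 and 123 bases before the start. The Id2 window held 1 GGCGCC match at 231 bases and 1 E-box match at 196 bases before the start. The Id3 window held neither. Both strands were searched for these and for CAGACA (a Smad binding element), TTCNNNGAA (a STAT motif) and GGAAA (the core bound by NFAT, the transcription factor family that calcineurin activates), and these last 3 had no match in any of the 3 windows. Over 32851 promoter windows of the same length, CANNTG occurred in 66.2%, GGCGCC in 9.59%, CAGACA in 17.1%, TTCNNNGAA in 7.02% and GGAAA in 55.6%. A match describes letters in the window and not a bound site.

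Bmp4, the BMP ligand of the set, fell in steps as LIF was withdrawn. Levels below are log2 values after background correction and quantile normalization, given for replicates 1 and 2 of each group. Probe 1 (ILMN_1215252) read 10.02 and 10.93 at day 0, 9.02 and 9.53 at day 1, and 8.10 and 8.32 at day 3. Probe 2 (ILMN_1235698) read 7.34 and 7.34 at day 0, 6.03 and 6.30 at day 1, and 4.55 and 4.60 at day 3, where it was undetected on both arrays. On each probe no array of a later day overlapped an array of an earlier day.

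By day 1 of LIF withdrawal, Bmp4 had fallen 2.30-fold on probe 1 (log2 change -1.20 ± 0.23, limma adjusted p = 0.00107) and 2.26-fold on probe 2 (-1.18 ± 0.17, adjusted p = 3.97e-05). These 2 were the only member probes called (adjusted p under 0.05) of the 12 tested at day 1, when 6.15% of all 21691 tested probes were called. The probe 1 call was lost without day 0 replicate 2 or without day 1 replicate 1 (adjusted p up to 0.0702), and the probe 2 call was kept in every alternative run. By day 3 the fall from day 0 was 4.81-fold on probe 1 (-2.27 ± 0.23, adjusted p = 2.59e-08) and at least 4.85-fold on probe 2 (adjusted p = 6.15e-12). The bound sets the day 0 mean against the lowest level detected on the day 3 arrays. Between day 1 and day 3 probe 1 fell by 1.06 ± 0.23 on the log2 scale (adjusted p = 0.000908), and probe 2 was at least 2.15-fold lower.

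**Figure D1:**
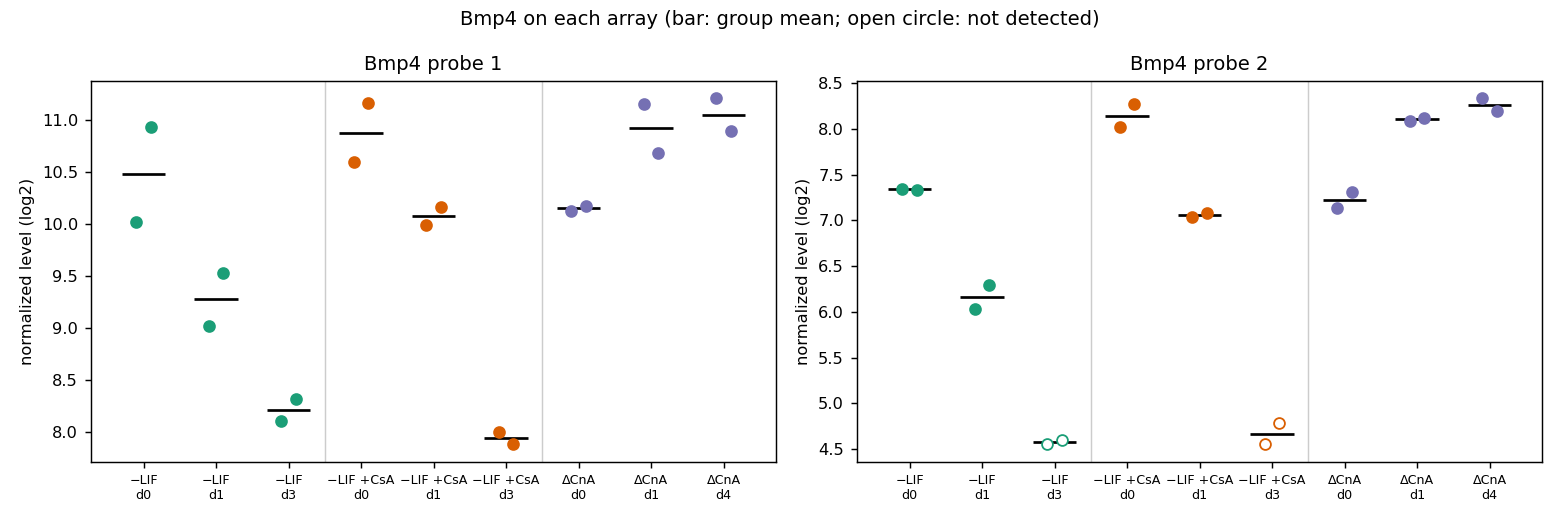
Normalized level (log2) of the 2 Bmp4 probes on each of the 18 arrays. Points are arrays, bars are group means and open circles are arrays without detection; both probes fell with each day of LIF withdrawal and were higher at days 1 and 4 of deltaCnA induction (purple) than at its day 0.

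With CsA, Bmp4 fell over the same days, on probe 2 from a higher day 0 level. Probe 1 read 10.59 and 11.16 at day 0, 9.99 and 10.16 at day 1, and 8.0 and 7.88 at day 3. Probe 2 read 8.02 and 8.28 at day 0, 7.04 and 7.08 at day 1, and 4.55 and 4.79 at day 3, where it was again undetected on both arrays. From day 0 to day 3, Bmp4 fell 7.68-fold on probe 1 (-2.94 ± 0.23, limma adjusted p = 1.87e-09) and at least 8.19-fold on probe 2 (adjusted p = 1.38e-12). By day 1 the fall was called on probe 2 (-1.09 ± 0.17, adjusted p = 0.000262), whereas probe 1 changed by -0.80 ± 0.23 and missed the threshold (adjusted p = 0.0535).

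Set against the same day without CsA, Bmp4 was higher with CsA at day 1, by 0.80 ± 0.23 on probe 1 (limma adjusted p = 0.0273) and by 0.90 ± 0.17 on probe 2 (adjusted p = 0.00135), in log2 units. The probe 1 call was lost without LIF withdrawal day 1 replicate 1 and without either CsA day 1 replicate (adjusted p up to 0.270), and in 4 of 10 other alternatives (up to 0.0767, with median scaling, series matrix values, no detection filter or no intensity trend), and the probe 2 call was kept in every alternative run. At day 0 probe 2 was 0.81 ± 0.17 higher with CsA (adjusted p = 0.00340), a call lost without CsA day 0 replicate 2 (adjusted p = 0.0537) and with median scaling (0.0542). Probe 1 differed at day 0 by 0.40 ± 0.23, with arrays that overlapped (adjusted p = 0.288). At day 3 the difference on probe 1 was -0.27 ± 0.23 and was not called (95% interval -0.74 to 0.19). Probe 2 was undetected on all 4 arrays of that day and gives no difference there.

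Whether the fall of Bmp4 from day 0 to day 3 differed with CsA was tested as an interaction. On probe 1 the change with CsA minus that without was -0.67 ± 0.32 log2 units and was not called (limma adjusted p = 0.197), and 1 of 8 fits without a replicate passed (adjusted p = 0.0141). On probe 2 both falls ended below detection and are bounds, so their difference was not measured. None of the 12 member probes was called by limma in the interaction at day 3 or at day 1, with 4 and 0 at an unadjusted p under 0.05, while 11.8% and 0.0599% of all tested probes were called.

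Bmp4 rose during deltaCnA induction. Probe 1 read 10.13 and 10.17 at day 0, 11.16 and 10.69 at day 1, and 11.21 and 10.89 at day 4. Probe 2 read 7.13 and 7.31 at day 0, 8.08 and 8.13 at day 1, and 8.34 and 8.19 at day 4. On both probes every array of day 1 and day 4 lay above both arrays of day 0. Probe 2 rose by 0.88 ± 0.17 by day 1 (limma adjusted p = 0.00189) and by 1.04 ± 0.17 by day 4 (adjusted p = 0.000628), and kept both calls in every alternative run. Probe 1 rose by 0.77 ± 0.23 (adjusted p = 0.0346) and 0.90 ± 0.23 (adjusted p = 0.0317). The day 1 call was lost without either day 0 replicate or without day 1 replicate 1 (adjusted p up to 0.384), and the day 4 call without any 1 of the 4 arrays (up to 0.373). Both were also lost with median scaling, series matrix values, no detection filter or no intensity trend (up to 0.0919 at day 1 and 0.123 at day 4). From day 1 to day 4 neither probe changed beyond its spread (0.13 ± 0.23 and 0.16 ± 0.17).

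The 2 Bmp4 probes followed each other over the 9 group means (r = 0.995, a description across groups that share arrays and normalization). Over all groups probe 2 ran in the order deltaCnA day 4, CsA day 0, deltaCnA day 1, LIF withdrawal day 0, deltaCnA day 0, CsA day 1, LIF withdrawal day 1, CsA day 3 and LIF withdrawal day 3. Array values overlapped between deltaCnA day 4 and CsA day 0, between CsA day 0 and deltaCnA day 1, and between the day 3 groups. The other 5 neighbouring pairs did not overlap. On probe 1, 5 of 8 neighbouring pairs overlapped. The deltaCnA groups come from the derived cell line, and whether LIF was present is not given. Their ranks beside the other groups therefore cannot be assigned to treatment.

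Bmpr1a encodes a BMP type I receptor. During LIF withdrawal probe 1 (ILMN_2653312) read 8.14 and 8.73 at day 0, 8.48 and 8.51 at day 1, and 8.73 and 8.99 at day 3. Probe 2 (ILMN_1251119) read 6.93 and 7.23, then 7.05 and 7.18, then 7.41 and 7.82. From day 0 to day 3 probe 2 rose by 0.54 ± 0.19 (limma adjusted p = 0.0367), while probe 1 changed by 0.43 ± 0.18 and was not called (adjusted p = 0.0716). The probe 2 call was lost without day 0 replicate 1 or without day 3 replicate 2 (adjusted p up to 0.334), and with median scaling, series matrix values or no detection filter (up to 0.135). With CsA the day 3 changes were 0.26 ± 0.18 and 0.39 ± 0.19, and in the deltaCnA series the changes from day 0 lay between -0.14 and 0.05, with none called. The Bmpr1a group means spanned 1.81-fold on probe 1 and 1.65-fold on probe 2.

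Smad1 encodes a receptor-activated Smad that carries the BMP signal to the nucleus. Its 3 tested probes did not behave alike. Probe 2 (ILMN_1240219), annotated to a cDNA record rather than to the RefSeq transcript, read 5.87 and 5.88 at day 0, 6.32 and 5.89 at day 1, and 6.56 and 6.60 at day 3 of LIF withdrawal. It rose by 0.71 ± 0.20 from day 0 to day 3 (limma adjusted p = 0.00811), a call kept in every alternative run. Probe 1 (ILMN_2671572) changed by 0.27 ± 0.17 (adjusted p = 0.266) and probe 3 (ILMN_2439293) by 0.10 ± 0.18 (adjusted p = 0.746) over the same days. Probe 3 stayed between 5.65 and 6.09 on all 18 arrays.

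Smad1 probe 1 was higher with CsA at day 0. It read 6.98 and 7.35 without CsA and 7.63 and 7.80 with it, so that the groups did not overlap. The difference was 0.55 ± 0.17 (limma adjusted p = 0.0446), and it was lost without LIF withdrawal day 0 replicate 1 or either CsA day 0 replicate (adjusted p up to 0.289) and in 4 of 10 other alternatives (up to 0.277). Probe 2 differed by 0.62 ± 0.20 and just missed the threshold (adjusted p = 0.0508), and probe 3 by -0.03 ± 0.18. Together with Bmp4 probe 2 this made 2 of 12 member probes called at day 0, where 9.77% of all tested probes were called. With deltaCnA no Smad1 probe was called, and changes from day 0 ran from -0.21 to 0.23.

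**Figure D2:**
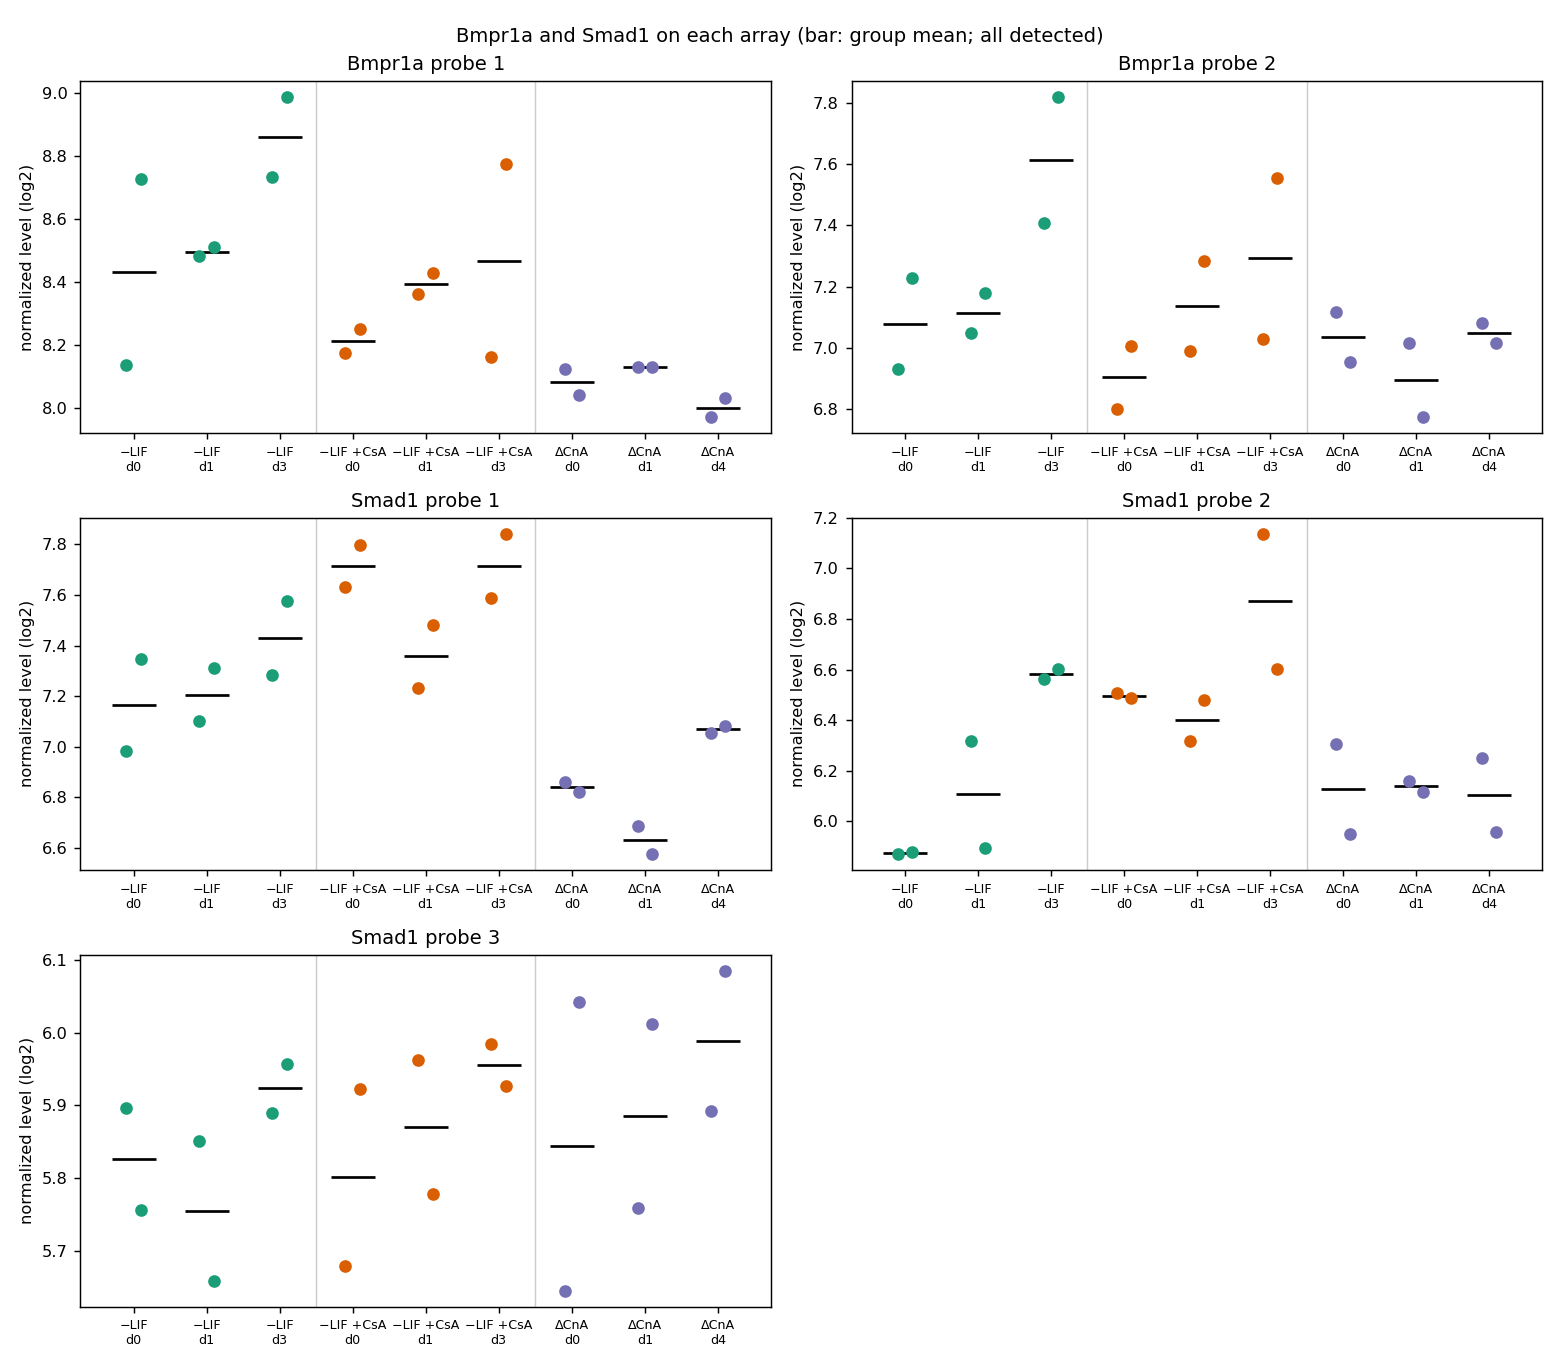
Normalized level (log2) of the 2 Bmpr1a probes and the 3 tested Smad1 probes on each of the 18 arrays, with bars at group means. Smad1 probe 2 read 6.56 and 6.60 at day 3 of LIF withdrawal against 5.87 and 5.88 at day 0, and Smad1 probe 3 stayed between 5.65 and 6.09 throughout.

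Of the Id genes, Id3 fell late in LIF withdrawal. Its probe (ILMN_2687169) read 8.96 and 8.45 at day 0, 8.76 and 8.76 at day 1, and 7.04 and 7.93 at day 3. The arrays of day 3 lay below all others of this series, with 0.89 log2 units between them. Id3 changed by 0.05 ± 0.26 in the first day and fell by 1.27 ± 0.26 from day 1 to day 3 (limma adjusted p = 0.000737). The fall from day 0 to day 3 was 2.33-fold (-1.22 ± 0.26, adjusted p = 0.000812), and without day 3 replicate 1 it was no longer called (adjusted p = 0.0524).

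With CsA, Id3 read 8.12 and 8.16 at day 0, 8.62 and 8.39 at day 1, and 6.48 and 7.16 at day 3. It fell 2.50-fold from day 0 (-1.32 ± 0.26, limma adjusted p = 0.000649) and 3.22-fold from day 1 (-1.68 ± 0.26, adjusted p = 7.79e-05). Both calls were kept in every alternative run. The falls from day 0 with and without CsA differed by -0.10 ± 0.37 (95% interval -0.87 to 0.67). At day 3, Id3 was at -0.67 ± 0.26 with CsA relative to without, which was not called (adjusted p = 0.0564). In the deltaCnA series Id3 read 7.99 and 8.81 at day 0, 8.22 and 8.56 at day 1, and 7.66 and 7.99 at day 4, and its change of -0.58 ± 0.26 by day 4 was not called (adjusted p = 0.346).

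For Id2 a rise from day 0 to day 3 was called on probe 1 and not on probe 2. Probe 1 (ILMN_1236868) read 7.09 and 7.14 at day 0, 7.37 and 7.60 at day 1, and 7.60 and 7.60 at day 3 of LIF withdrawal. The rise to day 3 was 1.40-fold (0.48 ± 0.15, limma adjusted p = 0.0163) and lost its call without any 1 of the 4 arrays (adjusted p up to 0.0729), with median scaling and with only the compared arrays fitted (up to 0.141). From day 1 to day 3 it changed by 0.11 ± 0.15 and was not called (adjusted p = 0.652). With CsA, probe 1 read 7.07 and 7.03 at day 0, 7.55 and 7.90 at day 1, and 8.03 and 7.98 at day 3. The rise was 1.93-fold by day 3 (0.95 ± 0.15, adjusted p = 5.89e-05, kept in every alternative run) and 1.59-fold by day 1 (0.67 ± 0.15, adjusted p = 0.0120). The day 1 call was lost without either day 0 replicate or without day 1 replicate 2 (adjusted p up to 0.242), and with median scaling (0.328). At day 3 probe 1 was 0.41 ± 0.15 higher with CsA than without (adjusted p = 0.0439), lost without any 1 of the 4 arrays (adjusted p up to 0.175) and with median scaling, no detection filter or only the compared arrays fitted (up to 0.333). The difference between the rises was 0.47 ± 0.22 (interaction, adjusted p = 0.185).

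The second Id2 probe did not follow the first closely (r = 0.51 over 9 group means). Probe 2 (ILMN_1228557) read 5.77 and 5.90 at day 0, 6.19 and 6.54 at day 1, and 5.42 and 5.84 at day 3 of LIF withdrawal. From day 0 to day 3 it changed by -0.20 ± 0.23 (limma adjusted p = 0.564). It fell by 0.73 ± 0.23 from day 1 to day 3 (adjusted p = 0.0238), lost without day 1 replicate 2 or without day 3 replicate 1 (adjusted p up to 0.247) and with median scaling, series matrix values or no detection filter (up to 0.127). With CsA its group means were 5.57, 6.15 and 6.07 at days 0, 1 and 3, against 5.63 at day 3 without CsA. None of its changes with CsA, or differences from no CsA, was called. The difference between the changes to day 3 was 0.70 (interaction, limma adjusted p = 0.199). In the deltaCnA series probe 2 read 5.69 and 4.99, then 5.88 and 5.92, then 4.84 and 4.89. It was undetected on both day 4 arrays. Day 1 was at least 1.69-fold above day 4 (adjusted p = 0.00539), lost without day 1 replicate 1 (0.0502). On probe 1 the same difference was -0.35 ± 0.15 and was not called (adjusted p = 0.153). Probe 1 is annotated to a cDNA record and probe 2 to the RefSeq transcript, and where each lies in the Id2 transcript was not examined here.

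Id1 showed no called change during LIF withdrawal on either probe, and wide gaps between replicates on probe 1. Probe 1 (ILMN_2672190) read 8.30 and 8.74 at day 0, 8.52 and 9.20 at day 1, and 8.18 and 9.04 at day 3 without CsA. With CsA it read 8.63 and 8.91, then 9.05 and 9.21, then 8.17 and 9.06. The day 3 changes of probe 1 from day 0 were 0.09 ± 0.27 and -0.16 ± 0.27, with 95% intervals from -0.48 to 0.66 and from -0.73 to 0.41. Probe 2 read 5.91 and 5.88 at day 0 and 6.15 and 6.26 at day 3 without CsA. With CsA it read 6.21 and 5.93, then 6.60 and 6.30 at these days. Its day 3 arrays lay above those of day 0 in both series, with no call. Gaps between replicates on probe 2 were at most 0.30 over all groups. At day 3 the same array was the lower of its pair for Id1 probe 1 and for Id3, without CsA (replicate 1) and with it (replicate 1). This was not particular to the Id genes, since it held for both Bmpr1a probes too.

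In the deltaCnA series, Id1 was lowest at day 4. On probe 1 its day 4 arrays were the 2 lowest of all 18, a ranking across both cell lines. Probe 1 read 8.57 and 8.44 at day 0, 9.16 and 8.51 at day 1, and 7.63 and 7.32 at day 4. It fell by 1.36 ± 0.27 from day 1 to day 4 (limma adjusted p = 0.00228), lost without day 1 replicate 1 (0.0773). The fall from day 0 was 2.05-fold (-1.03 ± 0.27, adjusted p = 0.0458), lost in 6 of 10 alternatives and without any 1 of the 4 arrays (adjusted p up to 0.336). Probe 2 (ILMN_2485120), annotated to a cDNA record, read 6.35 and 6.49 at day 0, 6.03 and 5.98 at day 1, and 5.98 and 5.95 at day 4. Its change of -0.45 ± 0.17 by day 4 was not called (adjusted p = 0.221), and its 9 group means followed those of probe 1 at r = 0.10.

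**Figure D3:**
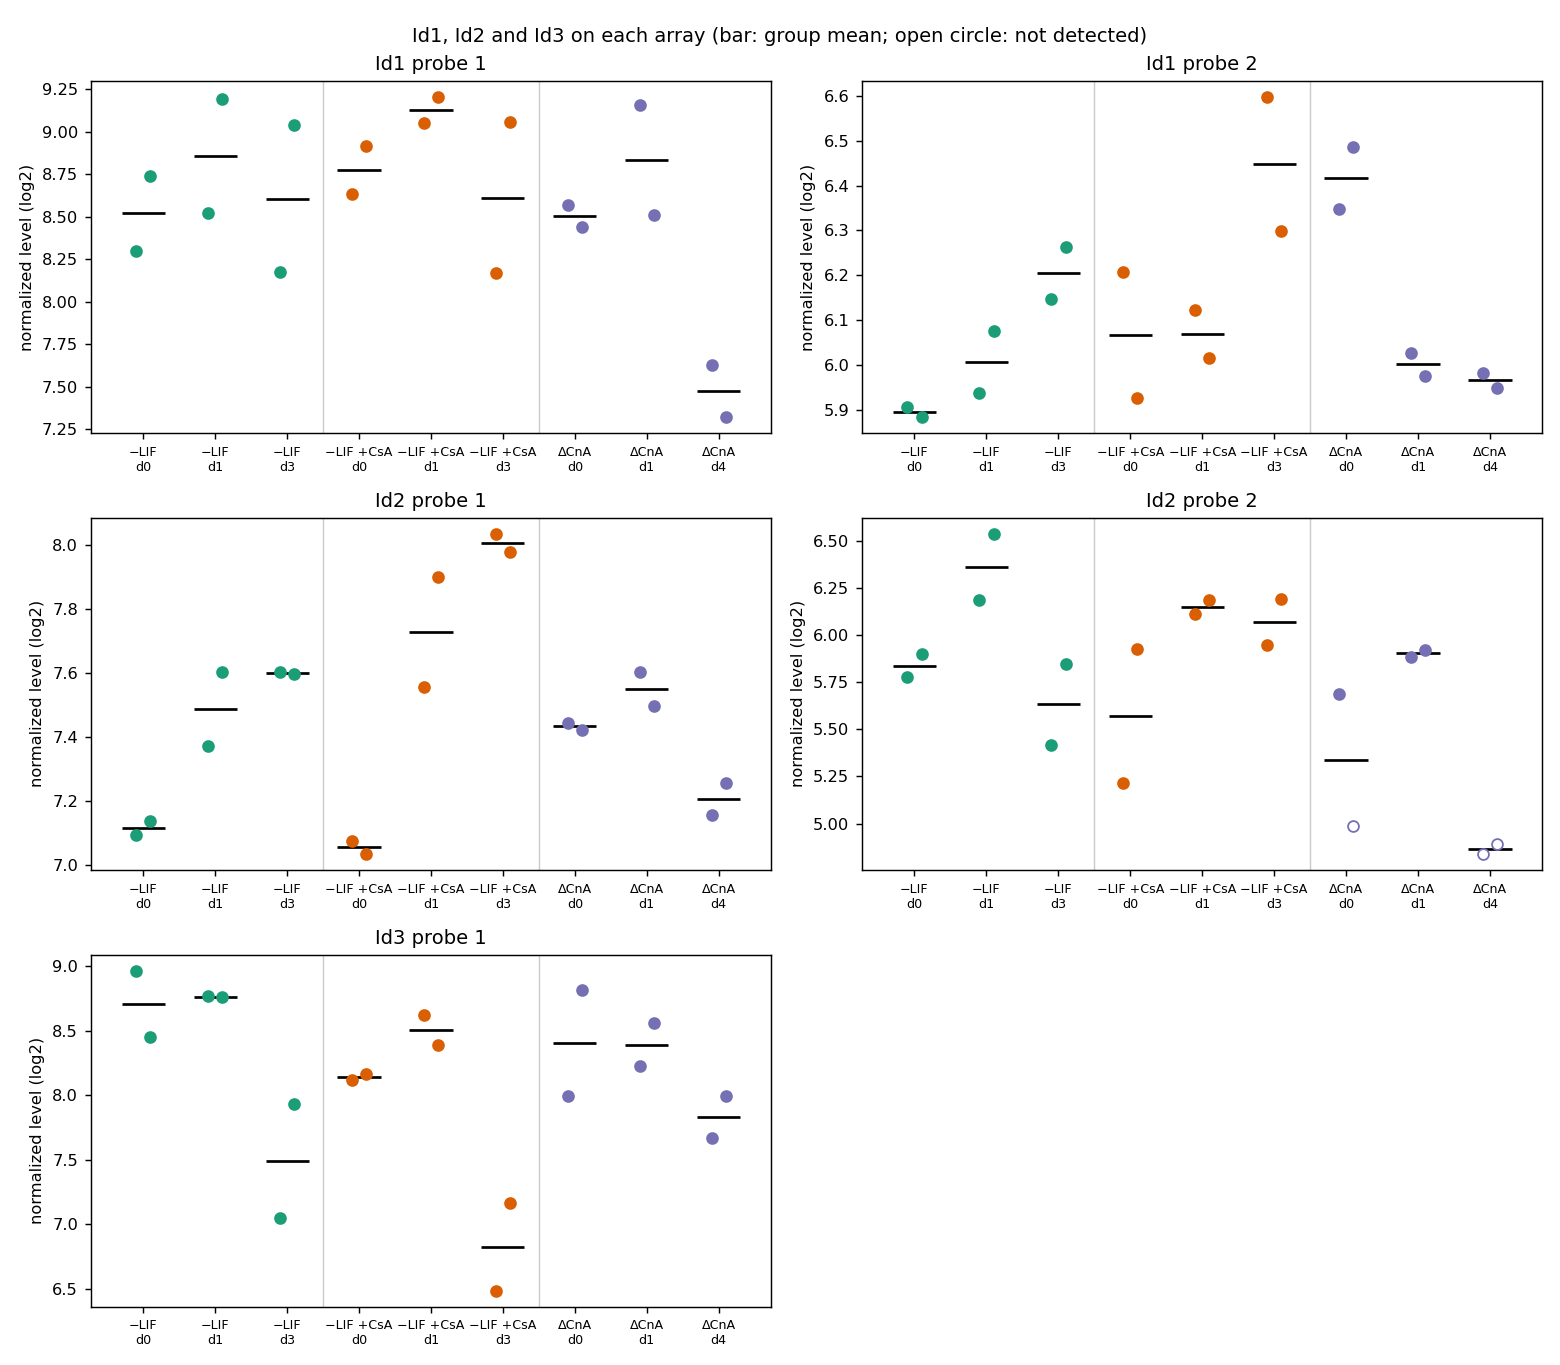
Normalized level (log2) of the Id1, Id2 and Id3 probes on each of the 18 arrays, with bars at group means and open circles for arrays without detection. Id3 was lowest at day 3 of LIF withdrawal with and without CsA, Id2 probe 1 was highest at day 3 with CsA, and Id1 probe 1 was lowest at day 4 of deltaCnA induction.

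Counted over the 12 member probes, 6 were called at day 3 of LIF withdrawal against day 0, beside 32.9% of all tested probes. Of these 6, 3 were higher (beside 16.8%) and 3 lower (beside 16.1%). From day 1 to day 3, 4 were called (beside 25.7%), and all 4 were lower (beside 12.2%). With CsA, 2 were called at day 1 (beside 3.08%), 4 at day 3 (24.8%) and 3 from day 1 to day 3 (20.3%). CsA against no CsA gave 2 calls at day 1 (beside 8.24%) and 1 at day 3 (32.5%). Induction of deltaCnA gave 2 calls at day 1 (beside 8.34%), 3 at day 4 (2.28%) and 2 from day 1 to day 4 (12%). Of the 3 calls at day 4 of deltaCnA, 2 were the probes of Bmp4. The median change of the member probes from day 0 to day 3 of LIF withdrawal was 0.18, against -0.03 over all tested probes.

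**Figure D4:**
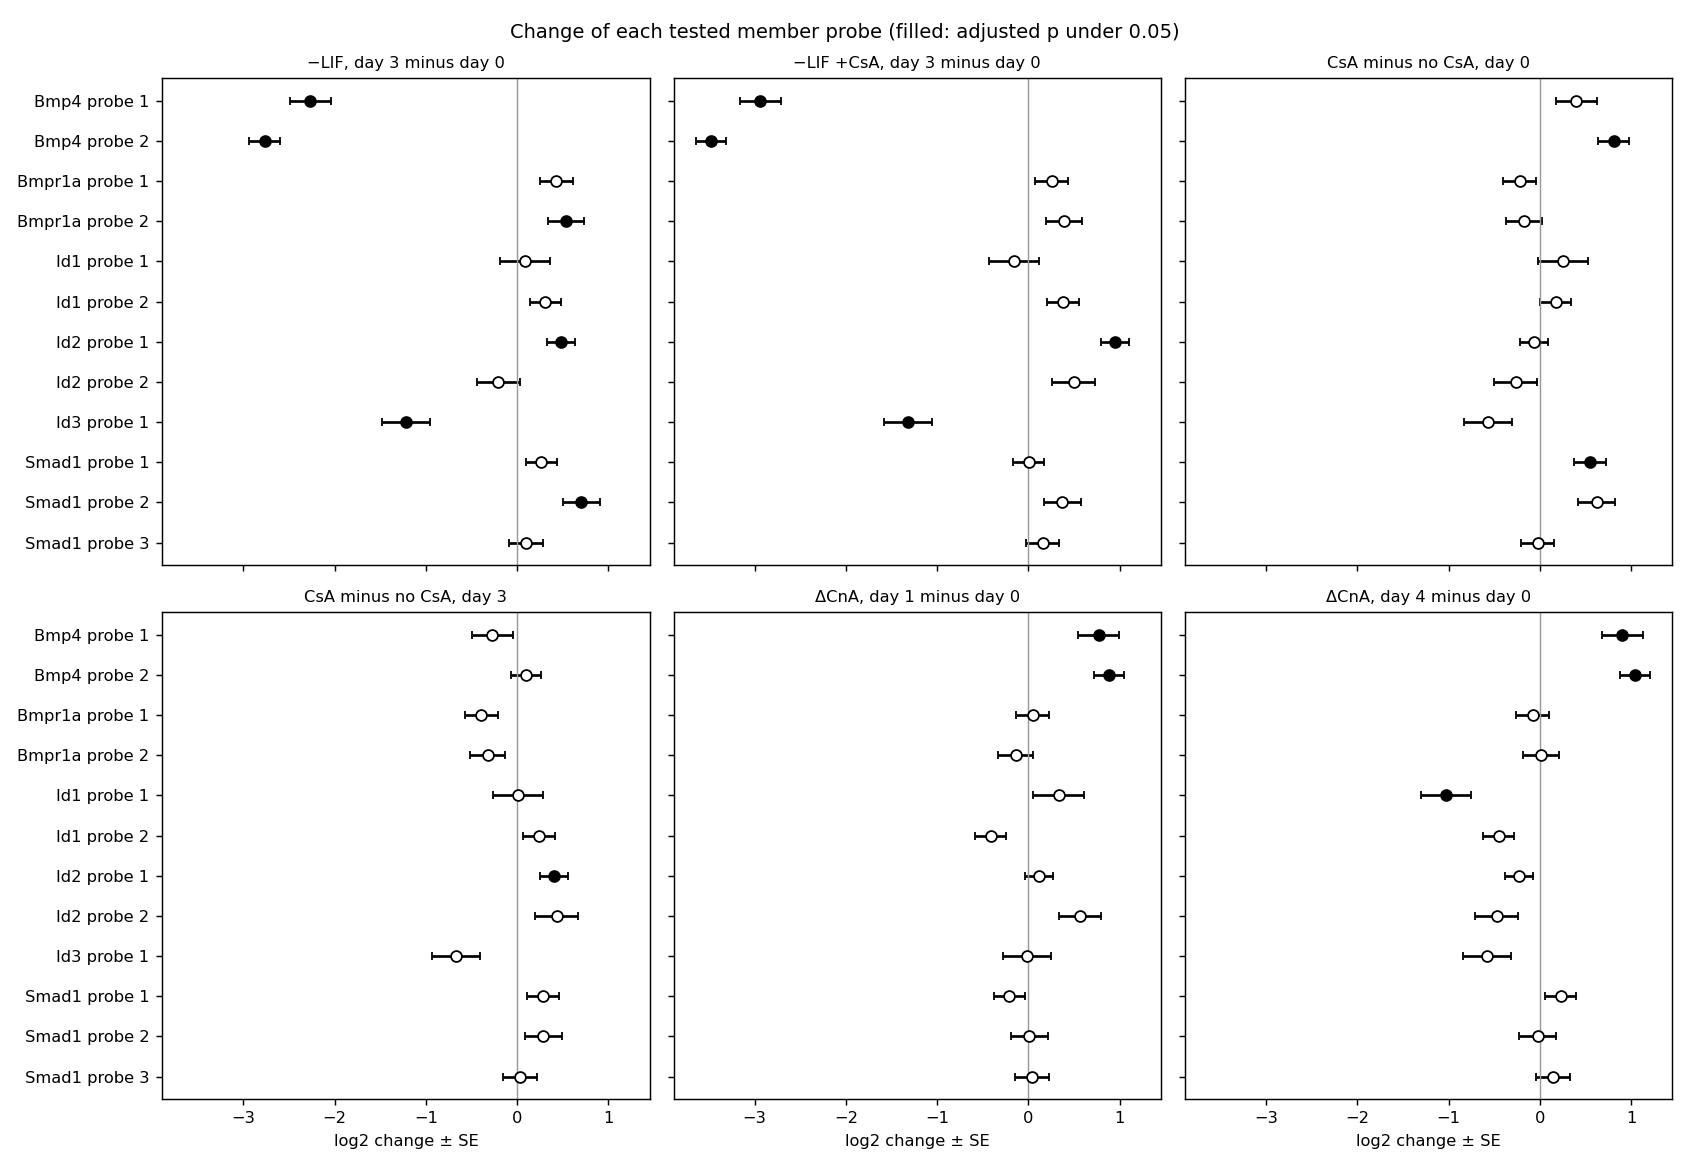
Log2 change (± SE, from 2 arrays a group) of the 12 tested member probes in 6 of the comparisons, with filled points for adjusted p under 0.05. Bmp4 probe 2 is drawn at its fitted values where day 3 was undetected. Bmp4 and Id3 lie left of 0 at day 3 with and without CsA, Bmp4 lies right of 0 after deltaCnA induction, and Bmpr1a, Id2 probe 1 and Smad1 probe 2 changed by less than 1 log2 unit.

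Among genes whose 9 group means spanned over 1 log2 unit (3578 genes), those most like Bmp4 probe 1 were Etv4 and Baiap2 (r = 0.97 each) and Plekho2 (0.96). Those most like Id3 were Aggf1 (r = 0.96), Iba57 (0.94) and Cpne9 (0.94). Those most like Id1 probe 1 were Rassf2 (r = 0.87), Timm21 and Tbc1d2b (0.82 each), and those most like Smad1 probe 1 were H6pd (0.97), Terb1 (0.96) and Zbtb18 (0.95). Between members, on the brightest probe of each, Bmp4 ran with Id3 (r = 0.62), against Id2 (-0.73) and Bmpr1a (-0.79), and weakly against Id1 (-0.25). These values describe 9 group means that share arrays and carry no test.

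The rest of the pathway was read from 7 lists of 82 genes, of which 49 were tested, each by its brightest probe. At day 3 of LIF withdrawal 17 of the 49 had risen and 8 had fallen, with a median change of 0.26 against -0.03 over all tested probes, of which 16.8% were called higher and 16.1% lower. Over the brightest probe of each of 10980 genes, 38.2% were called. Of 6 other ligands none rose and 2 fell, and of 9 other receptors and co-receptors 4 rose and none fell. The activin type II receptor Acvr2b rose 2.08-fold (1.06 ± 0.12, limma adjusted p = 1.67e-07), and the co-receptor Rgmb rose at least 1.05-fold from an undetected level. Of 3 other Smads 2 rose, among them Smad3, which carries activin, nodal and TGF-beta signals, by 0.83 ± 0.13.

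Inhibitors of the pathway moved both ways over these 3 days. Fst, which encodes follistatin, a secreted antagonist of activins and BMPs, rose 2.50-fold (1.32 ± 0.20, limma adjusted p = 9.45e-06). Of 5 extracellular antagonists tested 2 rose and 1 fell, and of 10 intracellular regulators 3 rose and 2 fell. The Smad co-repressor Skil rose by 1.04 ± 0.20, and Tob1, an inhibitor of Smad signalling, fell by 1.07 ± 0.18. Of 11 other known targets 3 rose and 3 fell: the homeobox gene Msx1 was at least 3.04-fold higher, while Tbx3 fell 12.2-fold (-3.61 ± 0.17) and Klf2 3.19-fold (-1.67 ± 0.14), and both of these encode transcription factors linked to naive pluripotency. Of 5 E protein and bHLH genes on which Id proteins act, 3 rose and none fell, among them Tal1 by 1.69 ± 0.18 and Twist1 by 1.01 ± 0.17. The named genes kept their calls without any single array. Bmp15, Bmp8a, Tgfbr3, Smad4, Chrd, Sostdc1 and Tcf12 were called too but lost the call without at least 1 array (adjusted p up to 0.534 over all alternatives).

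At day 3, CsA against no CsA gave 7 higher and 11 lower of these 49 genes, with a median of -0.09 against 0.01 over all tested probes, of which 32.5% were called (38.1% over the brightest probe of each gene). Of 6 other ligands 1 was higher and 2 were lower. Bmp8a was 2.49-fold lower (-1.31 ± 0.19, limma adjusted p = 8.90e-06), and Bmp8b was at least 2.01-fold lower and undetected with CsA. Both were already lower with CsA at day 0. Mean Bmp8a there was 7.48 without CsA and 6.49 with it, and Bmp8b was undetected on both CsA arrays. Neither gene was called in the day 3 interaction. At day 3, Fst was 4.33-fold lower with CsA (-2.11 ± 0.20, adjusted p = 1.56e-08) and Smad3 was lower by 0.91 (-0.91 ± 0.13). Msx1 was at least 3.10-fold lower and Gata3 at least 3.31-fold lower, whereas Tbx3 was 10.7-fold higher (3.42 ± 0.17, adjusted p = 7.55e-13). Tal1 was lower (-1.75 ± 0.18). The calls named for day 3 too were kept without any single array. Among the other calls, those of Bmp7 (the higher ligand), Acvr2b, Smurf1 and Tcf3 were lost without at least 1 array (adjusted p up to 0.289 over all alternatives). With CsA itself, 13 of the 49 rose and 4 fell from day 0 to day 3. Beside these, 24.8% of all tested probes were called (29.6% over the brightest probe of each gene).

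**Figure D5:**
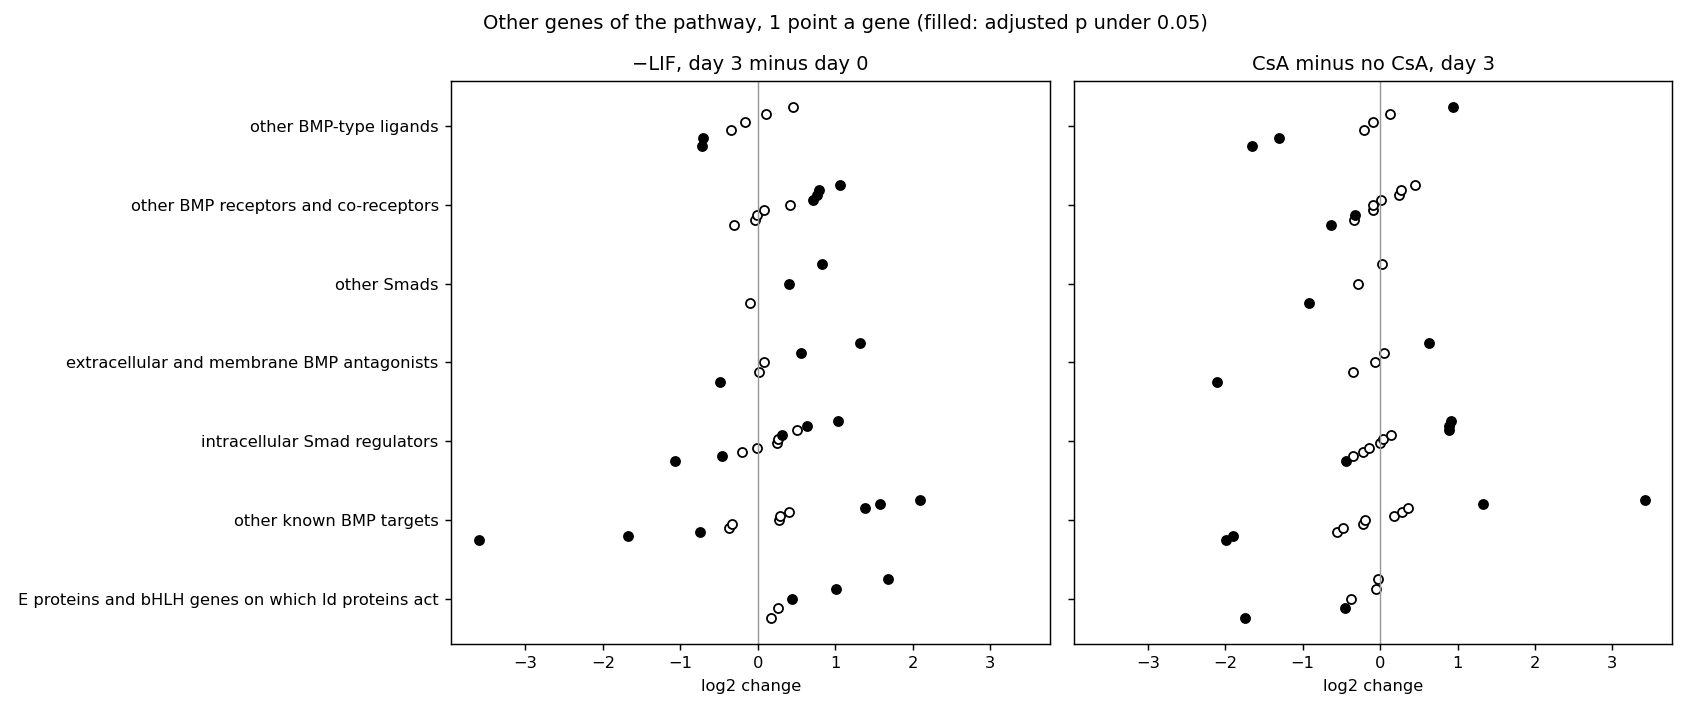
Log2 change of the 49 other tested genes of the pathway, grouped by role, at day 3 of LIF withdrawal against day 0 (left) and with CsA against without at day 3 (right); each point is a gene and filled points have adjusted p under 0.05. Tbx3 is the point farthest left in the first panel (-3.61) and farthest right in the second (3.42), and Msx1, undetected in the dimmer group of each, is drawn at its fitted values (2.10 and -1.99).

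In the earlier and the deltaCnA comparisons fewer genes were called, in these lists as over all tested probes (6.15% at day 1 of LIF withdrawal, 8.34% and 2.28% at days 1 and 4 of deltaCnA). By day 1 of LIF withdrawal 2 rose and 5 fell, among them Tbx3 (-1.39 ± 0.17) and Hes1, a bHLH repressor (-1.25 ± 0.14). By day 1 with CsA 1 rose and 4 fell, beside 3.08% of all tested probes called. CsA against no CsA gave 1 higher and 3 lower at day 0, beside 9.77% of all tested probes (13.2% over the brightest probe of each gene). At day 1 it gave 3 higher and 5 lower, beside 8.24% (10.8%). By day 1 of deltaCnA induction 1 of 49 rose and 4 fell: Smad3 changed by 0.53 ± 0.13, Fst by -0.83 ± 0.20, Fstl1 by -0.45 ± 0.12, Hes1 by -0.53 ± 0.14 and Tcf12 by -0.52 ± 0.16. By day 4 none had risen and Tal1 had fallen (-0.67 ± 0.18, limma adjusted p = 0.0408). Each of these 6 deltaCnA calls was lost without at least 1 of its 4 arrays (adjusted p up to 0.437 over all alternatives). From day 1 to day 4 of deltaCnA induction 3 of 49 were higher (Eng, Fstl1 and Hes1) and 3 lower, beside 12% of all tested probes. The lower 3 were Smad3 (mean level 9.72 to 8.87), Tal1 (6.55 to 5.58) and Gata2 (6.19 to undetected on both day 4 arrays). The calls of these lower genes were kept in every alternative run, and those of Eng, Fstl1 and Hes1 were not. Rcan1, a calcineurin-responsive gene, changed by -0.20 ± 0.13 by day 1 and -0.11 ± 0.13 by day 4, with neither called. Ppp3ca, which encodes calcineurin A, changed by -0.25 ± 0.16, and whether its probe reads the deltaCnA transgene is not known, so it does not check the induction.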

How the data were processed

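Per the labels' protocols, Trizol RNA was amplified and biotinylated (Ambion MessageAmp). Per the file headers, the authors deposited intensities that are not normalized between arrays. The authors deposited a detection p-value beside each of these. The intensities of the series matrix, deposited by the authors after a normalization that is not given in the sources used here, served as an alternative. Groups came from the sample titles.

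Background was corrected with normexp from the detection p-values (offset 16), arrays were quantile normalized and values taken to log2 (limma 3.58.1, R 4.3.3). A linear model of 9 group means over 18 arrays (9 residual degrees of freedom, eBayes with an intensity trend) was fitted to the 21691 probes that some group detected on both of its arrays. P-values were adjusted by Benjamini-Hochberg over all of these within each of 14 comparisons. A probe or gene is called, risen or fallen at an adjusted p under 0.05, and errors are standard errors. The fit was also run on simulated log2 levels with independent noise. Such levels cannot check the background correction, the normalization or the detection floor. Where the dimmer group was undetected, "at least" folds use the lowest detected level. The number of arrays limits the precision.

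The members and the lists were chosen with earlier results of these data known. Every member probe is named. Of each list, at most 3 called genes a comparison are named, those with the largest change. The 3 genes most like each member were taken by correlation of group means where its brightest probe spanned over 1 log2 unit. Alternatives covered background, scaling, filter, probe choice, arrays fitted, replicate block, trend and each replicate left out. Normalizing the deltaCnA arrays apart was added after seeing the data.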

Additional observations from a re-analysis of the deposited data

Results flagged for a closer look

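Whether the change from day 0 to day 3 differed with CsA was tested by a limma interaction, adjusted over all tested probes. No probe of Bmp4, Bmpr1a, Smad1 or the Id genes was called. Of the 49 tested genes of the pathway lists, 5 were called higher and 5 lower, beside 11.8% of all tested probes. Over the brightest probe of each gene 15.3% were called. The 9 genes named here follow the rule of at most 3 a list, which leaves out a called gene of the other known targets. Each value is the log2 change with CsA minus that without, and no group of 2 arrays could be examined for outlying samples. Tbx3 fell less with CsA (interaction 2.86 ± 0.24, adjusted p = 3.66e-08). Fst rose without CsA and changed by -0.66 ± 0.20 with it (interaction -1.99 ± 0.28, adjusted p = 2.70e-05), and the call of that second change was lost in 3 of 4 fits without an array and under median scaling (adjusted p up to 0.138). Msx1 was at least 3.04-fold higher at day 3 without CsA and was undetected on the arrays of both days with it, so its fitted interaction (-1.97 ± 0.28, adjusted p = 2.95e-05) gives no size. Tal1 rose more without CsA (-1.15 ± 0.25, adjusted p = 0.00287). The interaction calls of these 4 genes held without any single array. Gata3 rose without CsA and was detected on none of the day 0 arrays and 1 of the day 3 arrays with it, so its fitted interaction (-1.53 ± 0.40, adjusted p = 0.0124) gives no size either; the call was lost without 1 array in 3 of 8 fits (adjusted p up to 0.0681). Bmp7 (1.08 ± 0.33, adjusted p = 0.0342), Tob1 (0.87 ± 0.26, 0.0281), Usp9x (0.80 ± 0.22, 0.0167) and Smad3 (-0.60 ± 0.18, 0.0278) were each lost without single arrays and under median scaling (adjusted p up to 0.480 over these 4 genes).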

How the results depend on the processing

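Of 33 called changes of member probes, 22 were called under every alternative other than leaving out a replicate, 18 also without each single array, and 0 reversed direction under any alternative run. The counts of called member probes (of 12) that moved were as follows. Median scaling gave 1 for CsA day 1 against day 0, 0 and 1 for CsA against no CsA at days 0 and 1, 0 at day 3, and 1 each for deltaCnA days 1 and 4 against day 0. The series matrix, and testing without a detection filter, each gave 1 for CsA against no CsA at days 0 and 1 and 1 each for deltaCnA days 1 and 4; without the filter the day 3 count against no CsA was 0. Fitting only the arrays compared gave 1 at day 0 and 0 at day 3 for CsA against no CsA, and no intensity trend gave 1 at day 1 and 1 each for deltaCnA days 1 and 4. The day 3 interaction had 1 call, Bmp4 probe 2, which was undetected on every day 3 array and gives no size, without background correction, with an offset of 50, with the series matrix and without the trend. With the brightest probe alone (6 tested), the counts were 1 at day 1, 3 at day 3 and 2 from day 1 to day 3 of LIF withdrawal, 1 at days 0 and 1 for CsA against no CsA, and 1 at day 1 and 1 from day 1 to day 4 of deltaCnA. Normalizing the deltaCnA arrays apart moved no count by over 1.5 times. Without single replicates the counts ran, in LIF withdrawal, from 1 to 2 (day 1), 4 to 6 (day 3) and 3 to 5 (day 1 to 3), with CsA from 1 to 2, 4 to 6 and 3 to 5, for CsA against no CsA from 0 to 3, 1 to 2 and 0 to 2 (days 0, 1, 3), for the interactions from 0 to 0 and 0 to 1, and for deltaCnA from 1 to 2, 1 to 1 and 0 to 2. The cause of these moves was not tested.

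Same-numbered replicates share only a number, with 2 pairs in each comparison of 2 groups. Their deviations from the group means correlated at r = 0.102 to 0.336 in the groups compared. Over all 36 pairs of groups r ran from -0.197 to 0.336, with a median of 0.056. With the replicate number as a block, 2 member probes were called for CsA against no CsA at day 3 and 1 in the day 3 interaction. The block lost no call and added 6: Id3 for CsA against no CsA at day 3 (adjusted p = 0.0305), Smad1 probe 2 for the same at day 0 (0.0320), Bmp4 probe 1 for CsA day 1 against day 0 (0.0307), Bmpr1a probe 1 for LIF withdrawal day 3 against day 0 (0.0409), Bmpr1a probe 2 for day 3 against day 1 (0.0418) and that interaction (0.0393). Over all 21691 probes, median scaling lowered the called probes from 7129 to 5077 at day 3 of LIF withdrawal and by over 1.5 times in all 13 other comparisons, for example from 1335 to 828 (LIF withdrawal day 1), 2120 to 514 and 1787 to 558 (CsA against no CsA, days 0 and 1), 1809 to 646 and 495 to 209 (deltaCnA days 1 and 4). It moved the median of all probes by -0.15 at day 1 of LIF withdrawal and by 0.12 in the day 1 interaction. The share of called probes that were higher went from 47.9% to 22.8% (LIF withdrawal day 1), 52.5% to 71.8% (day 1 to 3), 49.2% to 35.9% and 49.6% to 60.9% (the same with CsA, day 1 and day 1 to 3), 50.6% to 37.9% and 51.1% to 68.5% (CsA against no CsA, days 0 and 1) and 23.1% to 50% (day 1 interaction). Fitting only the arrays compared gave 1225 at day 0 for CsA against no CsA and 830 for deltaCnA day 4. Leaving out 1 array moved the count by over 1.5 times in at least 1 fit of 12 of the 14 comparisons, for example down to 322 (1.48%) and 142 (deltaCnA days 1 and 4 against day 0), 693 (deltaCnA day 1 to 4), 608 and 619 (CsA against no CsA, days 0 and 1) and 688 (LIF withdrawal day 1). The slide as a block was not run because the files used here name no slide. Dim probes near background, such as Bmp4 probe 2 at day 3, have only a bound there.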
